A study of Mus musculus with 22 samples.

Results

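A set of 9 genes that handle calcium, magnesium and potassium in the distal part of the nephron was described in mouse kidney, in Clock knockout (KO) and wild-type (WT) mice over the circadian cycle. The genes are Trpm6, Slc41a1 and Pvalb for magnesium, Trpv5, Calb1 and Slc8a1 for calcium, and Kcnj1, Kcnma1 and Kcnj10 for potassium. They were taken by name, each read from its brightest probe set with a single gene symbol, and all 9 passed the filter on dim probe sets, among 13967 genes tested. Expression was measured on 22 arrays of RNA that the source and extraction labels give as whole kidney (the sampling protocol also mentions microdissection, of which nothing more is said), 11 from KO mice labelled clock(-/-) and 11 from WT mice, and the colony of clock deficient animals came from clock(+/-) heterozygous pairs. Both genotypes were kept for 2 weeks in 12 h of light and 12 h of dark and then for 30 h in constant darkness, and left kidneys were taken every 4 h from zeitgeber time 0 (ZT0, lights on in the earlier cycle) to ZT20, with ZT12 at lights off. RNA of 2 or 3 mice was combined for each array, with 2 pools per genotype and time except 1 pool for KO at ZT16 and 1 for WT at ZT8. The genotype is that of the whole animal, single mice in a pool cannot be told apart, and nothing says that the pools came from separate litters or days, so a p-value here reflects only how far these pools differ. The study's title places the arrays in the context of renal excretory rhythms.

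The distal convoluted tubule and the connecting tubule set how much calcium, magnesium and potassium leaves the body in the urine. Magnesium enters the cells of the distal convoluted tubule from the urine through the channel Trpm6. Calcium enters slightly further downstream through Trpv5, is carried across the cell bound to calbindin (Calb1) and leaves on the blood side through the sodium-calcium exchanger Slc8a1. Potassium is secreted into the urine through the channels ROMK (Kcnj1) and BK (Kcnma1), while Kir4.1 (Kcnj10) on the blood side sets the membrane voltage. CLOCK pairs with BMAL1 (Arntl) and binds E-box sequences in the promoters of its target genes.

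Promoters were read for the 8 of 9 genes that matched the RefSeq promoter table of build GRCm38.p6, as the 250 bases before each annotated start, with 2 starts for Pvalb. The 5 shown belong to Trpm6 and Slc8a1, which had the largest genotype differences of the 9 genes, to Trpv5 and Kcnj1, which held a searched motif, and to Slc41a1, the 1 gene of the 9 with a called rhythm in WT. Kcnj10 also held a searched motif, and its promoter is not printed. Capitals mark TATAAA in Trpv5 and AGAACA, a hexamer bound by steroid hormone receptors, in Kcnj1. The windows are chr19:18749480-18749729 on the plus strand for Trpm6, chr17:81738388-81738637 on the minus strand for Slc8a1, chr6:41680724-41680973 on the minus strand for Trpv5, chr9:32393735-32393984 on the plus strand for Kcnj1, and chr1:131827762-131828011 on the plus strand for Slc41a1, each printed 5′ to 3′ along its gene.
Trpm6: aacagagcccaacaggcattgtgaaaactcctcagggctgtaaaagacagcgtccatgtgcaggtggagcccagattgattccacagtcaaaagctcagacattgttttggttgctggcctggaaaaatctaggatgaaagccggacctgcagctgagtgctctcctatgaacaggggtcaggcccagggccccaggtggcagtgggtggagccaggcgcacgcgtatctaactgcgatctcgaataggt
Slc8a1: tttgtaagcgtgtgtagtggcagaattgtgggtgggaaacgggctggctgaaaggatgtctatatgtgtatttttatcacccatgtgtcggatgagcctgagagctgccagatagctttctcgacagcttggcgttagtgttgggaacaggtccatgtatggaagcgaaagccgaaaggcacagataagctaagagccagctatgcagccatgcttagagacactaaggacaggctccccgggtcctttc
Trpv5: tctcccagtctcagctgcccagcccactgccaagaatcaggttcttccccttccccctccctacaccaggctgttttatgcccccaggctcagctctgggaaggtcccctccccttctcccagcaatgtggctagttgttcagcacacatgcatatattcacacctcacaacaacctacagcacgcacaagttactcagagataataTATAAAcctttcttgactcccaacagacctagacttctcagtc
Kcnj1: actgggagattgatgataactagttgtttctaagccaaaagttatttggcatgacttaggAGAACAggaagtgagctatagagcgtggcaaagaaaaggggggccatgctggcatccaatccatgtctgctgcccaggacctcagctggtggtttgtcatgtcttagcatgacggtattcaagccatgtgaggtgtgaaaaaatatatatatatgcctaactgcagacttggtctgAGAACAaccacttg
Slc41a1: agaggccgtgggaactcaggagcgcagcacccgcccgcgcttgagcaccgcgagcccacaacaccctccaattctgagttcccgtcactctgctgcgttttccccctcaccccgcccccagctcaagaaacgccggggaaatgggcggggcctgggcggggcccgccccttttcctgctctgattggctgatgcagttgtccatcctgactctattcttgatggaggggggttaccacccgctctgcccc

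Both strands were searched for 6 short motifs, with the 32851 promoters of the table cut to the same length as the background. The E-box CACGTG, which is its own reverse complement, was in 0 of the 9 promoters of these genes and in 6.02% of all promoters. The variant CACGTT was in 0 of 9 and in 3.85% of all promoters, the D-box TTATGTAA in 0 of 9 and in 0.819%, and AGGTCA, the core hexamer of ROR and REV-ERB receptor sites, in 0 of 9 and in 14% of all promoters. These counts say only that the letters are not in the 250 bases searched. AGAACA was in 2 of the 9 promoters, at 190 and 14 bases before the start of Kcnj1 and, on the other strand, 191 bases before that of Kcnj10, and in 16.1% of all promoters. TATAAA was in 1 of 9, at 43 bases before the start of Trpv5, and in 12.4% of all promoters.

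Values are log2 expression, in which a difference of 1 is a doubling, and levels of different genes are not compared, since each gene is read by its own probes. Array medians lay between 5.88 and 6.01. On a score over the 500 genes that best separated the genotypes on the other arrays, scaled to 1 for KO and 0 for WT, KO arrays lay between 0.26 and 1.53 and WT arrays between -0.52 and 0.66. Furthest toward the other genotype lay KO ZT8 pool 2 at 0.53, KO ZT12 pool 2 at 0.26 and WT ZT4 pool 2 at 0.66. These are the 3 arrays between the genotypes named below, although WT ZT0 pool 2, at 0.34, also lay above the lowest KO array. Both KO pools at ZT20, at 1.53 and 1.503, were the highest. The pool number also left a mark, since the second component of the residuals was above 0 on 11 of 12 pool 1 arrays and below 0 on 10 of 10 pool 2 arrays. The Clock probe set averaged 8.95 ± 0.11 in KO and 8.86 ± 0.24 in WT (SD, n = 11 each), which does not check the deletion, since which part of the gene is deleted is not in the labels. By the limma test described below, Clock was called higher in KO (difference 0.13, standard error 0.04, adjusted p = 0.0398). Of the 9 genes, 0 lie on chromosome 5, which carries Clock.

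Averaged over the cycle, KO and WT kidneys differed in 7 of the 9 genes, of which 6 were higher and 1 was lower in KO. The difference of the 2 fitted means was tested with limma, a gene was called where its Benjamini-Hochberg adjusted p over all 13967 genes was under 0.05, and ± after a difference is its standard error. In that test 9.14% of all genes were called, 5.23% higher and 3.9% lower in KO, and the median difference was 0.24 for the 9 genes and 0.00402 for all genes. The genes were listed with earlier results of these data known, so these counts describe them. With array medians subtracted, all genes split into 1111 higher and 343 lower in KO, against 731 higher and 545 lower as deposited, and the 9 genes kept 6 higher and 1 lower.

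**Figure D1:**
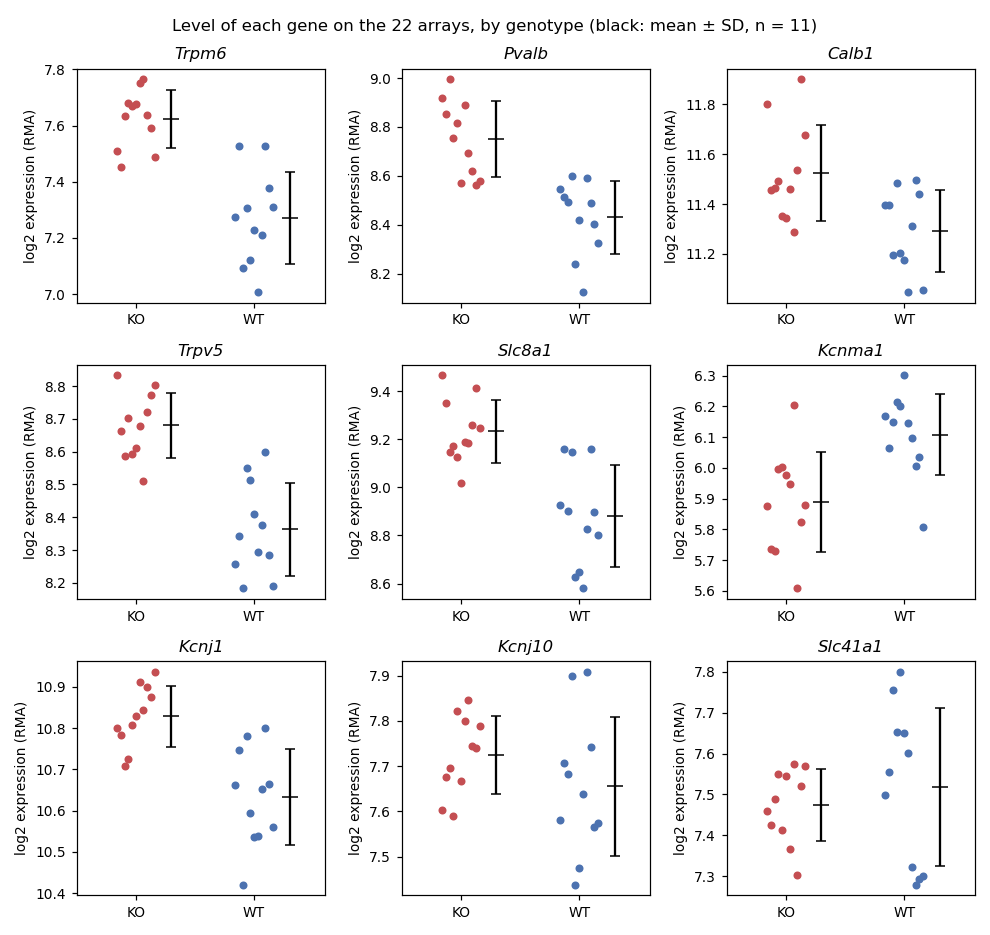
Log2 expression of the 9 genes, one point per array, in KO (left, red) and WT (right, blue), with the mean and SD of 11 arrays in black, each gene on its own axis. KO arrays reach higher than WT arrays for Trpm6, Pvalb, Calb1, Trpv5, Slc8a1 and Kcnj1, WT arrays reach higher for Kcnma1, and the genotypes overlap for all 9 genes.

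Trpm6, the magnesium entry channel of the distal convoluted tubule, had with Slc8a1 the largest differences of the 9 genes. Its lowest, median and highest log2 values were 7.45, 7.64 and 7.77 on KO arrays, against 7.01, 7.27 and 7.53 on WT arrays. Of 11 KO arrays 8 lay above every WT array, and 9 of 11 WT arrays lay below every KO array. KO minus WT came to 0.37 ± 0.05 log2 (adjusted p = 2.17e-05), which is 1.29 times the WT level, with a 95% interval of 0.27 to 0.46. It was 0.42 within pool 1 arrays and 0.32 within pool 2 arrays, where it was not called (adjusted p = 0.406).

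Pvalb encodes parvalbumin, a calcium- and magnesium-binding protein found in early distal convoluted tubule cells of the kidney. Its values ran from 8.56 through a median of 8.75 to 8.995 on KO arrays and from 8.12 through 8.49 to 8.60 on WT arrays. On 8 KO arrays the value was above that of all WT arrays. The difference was 0.31 ± 0.06 (adjusted p = 0.00156, 95% interval 0.19 to 0.44), with KO above WT at all 6 times on every pool. Within pools it was 0.35 in pool 1 and 0.27 in pool 2 (adjusted p = 0.469 in pool 2). Parvalbumin is also abundant in fast skeletal muscle, and 4 muscle markers (Ckm, Acta1, Mylpf and Tnnt3) were measured at gene means of 5.26 to 6.34, where the filter level was 5.21, with a summed linear level of 215 to 269 in KO and 227 to 303 in WT. By limma 0 of the 4 were called, and 0 had an unadjusted p under 0.05.

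Slc41a1, a magnesium transporter that works with sodium, did not pass the test for its mean. KO arrays spanned 7.30 to 7.57 with a median of 7.49, and WT arrays spanned the wider range of 7.28 to 7.80 with a median of 7.55. The difference was -0.07 ± 0.04 (adjusted p = 0.228), with a 95% interval of -0.15 to 0.0046. It was -0.13 in pool 1 and 0.02 in pool 2. Without the 3 arrays that lay between the genotypes the difference was -0.12 (adjusted p = 0.0452). Those arrays were picked by their genotype scores after the data were seen, so that p is not separate support for a difference. The mean hides a time course that is described further on.

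All 3 calcium genes were higher in KO. Trpv5, the calcium entry channel, read 8.51, 8.68 and 8.83 as lowest, median and highest on KO arrays, against 8.18, 8.34 and 8.60 on WT arrays. In all, 8 KO arrays were above all WT arrays and 8 WT arrays below all KO arrays, and the KO pools were above the WT pools at all 6 times. The difference was 0.31 ± 0.05 (adjusted p = 0.000216, 95% interval 0.21 to 0.41), or 0.36 in pool 1 and 0.24 in pool 2 (adjusted p = 0.494 in pool 2).

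Calb1, the calcium buffer calbindin-D28k, ran from 11.29 through 11.47 to 11.90 on KO arrays and from 11.05 through 11.31 to 11.50 on WT arrays. The genotypes overlapped more for Calb1 than for Trpv5, with 4 KO arrays above all WT arrays and 5 WT arrays below all KO arrays. The difference was 0.24 ± 0.06 (adjusted p = 0.0106, 95% interval 0.12 to 0.37), or 0.30 in pool 1 and 0.15 in pool 2 (adjusted p = 0.695 in pool 2). Without both KO pools at ZT20 it was 0.22 and not called (adjusted p = 0.0678).

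Slc8a1, which exports calcium in exchange for sodium, had values of 9.02, 9.19 and 9.47 on KO arrays and 8.58, 8.90 and 9.16 on WT arrays, as lowest, median and highest. Again 8 KO arrays stood above all WT arrays. The difference was 0.37 ± 0.06 (adjusted p = 0.000295, 95% interval 0.25 to 0.49), or 0.46 in pool 1 and 0.24 in pool 2 (adjusted p = 0.569 in pool 2). A second probe set of Slc8a1 averaged 8.44 in KO and 8.03 in WT, a difference of 0.40 ± 0.09 (adjusted p = 0.00854 with every probe set tested).

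Of the 3 potassium channels 1 was higher in KO, 1 was lower and 1 was not called. Kcnj1 (ROMK), which is also found in the thick ascending limb, read 10.71, 10.83 and 10.94 on KO arrays and 10.42, 10.65 and 10.80 on WT arrays, as lowest, median and highest. Here 7 KO arrays were above all WT arrays. The difference was 0.21 ± 0.04 (adjusted p = 0.00179, 95% interval 0.13 to 0.29), or 1.16 times the WT level, with 0.24 in pool 1 and 0.16 in pool 2 (adjusted p = 0.56 in pool 2).

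Kcnma1, the pore subunit of the BK channel, was the 1 gene of the 9 called lower in KO. Its values were 5.61, 5.88 and 6.20 on KO arrays and 5.81, 6.14 and 6.30 on WT arrays, as lowest, median and highest, with 3 KO arrays below all WT arrays. The difference was -0.23 ± 0.05 (adjusted p = 0.00635, 95% interval -0.34 to -0.13), or 0.85 times the WT level, with -0.33 in pool 1 and -0.12 in pool 2 (adjusted p = 0.602 in pool 2). This probe set is dim, with a mean of 5.999, and a second one at 3.58, below the filter, differed by -0.09 ± 0.06 (adjusted p = 0.449 with no filter).

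Kcnj10 (Kir4.1) did not pass the test. KO arrays ran from 7.59 through 7.74 to 7.85 and WT arrays from 7.44 through 7.64 to 7.91, so the KO range lay inside the WT range. The difference was 0.08 ± 0.05 (adjusted p = 0.359), with a 95% interval of -0.03 to 0.19. Of the 9 genes, 0 had all its KO arrays on one side of all its WT arrays, and of all genes 0.115% had KO wholly above WT and 0.0215% KO wholly below.

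**Figure D2:**
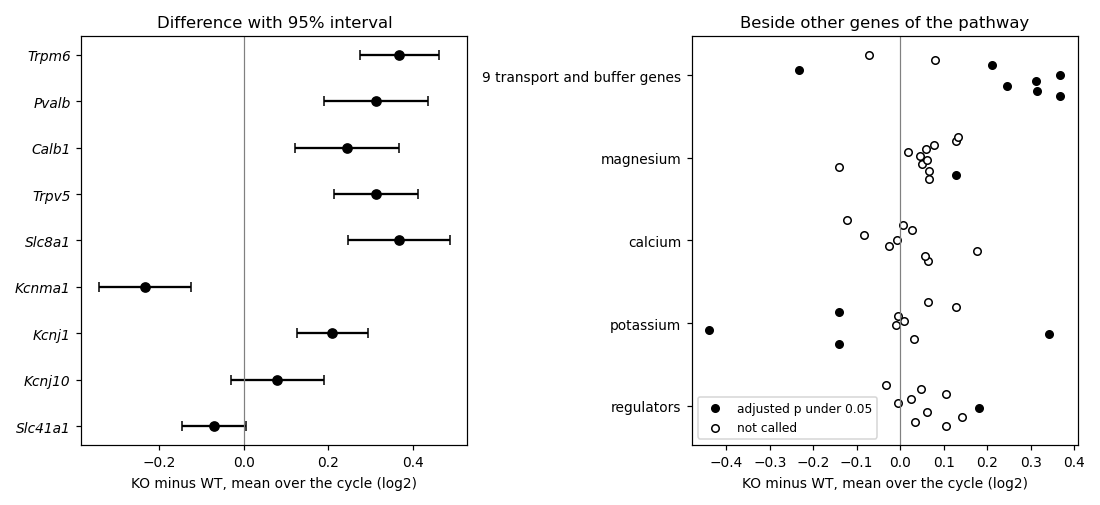
Left, KO minus WT difference of the means over the cycle in log2 for each of the 9 genes, with its 95% interval from limma. Right, the same difference for the 9 genes and for the other measured genes of the magnesium, calcium, potassium and regulator lists, filled where the adjusted p over all genes was under 0.05. For 6 of the 9 genes the interval lies above 0 and for 1 below, while all genes of the other lists except Kcnk1 and Kcnk5 lie between -0.14 and 0.18.

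Time of day was then tested as a 24 h wave in each genotype, whose amplitude is the log2 distance from its mean to its peak. Of the 9 genes 1 had a called rhythm in WT, where 6.48% of all genes were called, and 0 of 9 had one in KO, where 2.46% were called. In KO 2 of the 9 genes had an unadjusted p under 0.05, Calb1 and Trpm6, against 13.8% of all genes. The waves of the 2 genotypes were called different for 0 of the 9 genes and for 0.043% of all genes in limma, and 3 of the 9 had an unadjusted p under 0.05, against 7.78% of all genes.

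Slc41a1 was the rhythmic gene. On KO arrays it read 7.46 and 7.43 (ZT0), 7.49 and 7.55 (ZT4), 7.41 and 7.54 (ZT8), 7.37 and 7.57 (ZT12), 7.30 (ZT16), and 7.52 and 7.57 (ZT20). On WT arrays it read 7.50 and 7.55 (ZT0), 7.76 and 7.65 (ZT4), 7.80 (ZT8), 7.65 and 7.60 (ZT12), 7.32 and 7.28 (ZT16), and 7.29 and 7.30 (ZT20). WT kidneys were thus high from ZT4 to ZT12 and low at ZT16 and ZT20, with no overlap between these times, while the KO pools of a time differed by up to 0.21. The KO amplitude was 0.04 ± 0.04 (adjusted p = 0.906), against 0.27 ± 0.04 in WT with a peak at ZT6.7 (adjusted p = 0.000585). On pool 2 arrays alone the WT rhythm was not called (amplitude 0.24, adjusted p = 0.369). The difference between the waves was 0.25 ± 0.05 log2 with an unadjusted p of 0.000468 and did not pass over all genes (adjusted p = 0.198). Leaving out the 3 arrays that lay between the genotypes gave 0.30 (adjusted p = 0.045). That p is not separate support either, since the arrays were picked by their genotype scores. At single times the KO minus WT difference was -0.32 ± 0.10 at ZT8 and 0.25 ± 0.08 at ZT20, neither called (adjusted p = 0.74 and 0.143).

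The fitted waves of Trpm6 peaked at nearly opposite times in KO and WT, and their difference did not pass the test over all genes. KO arrays read 7.51 and 7.45 (ZT0), 7.64 and 7.68 (ZT4), 7.67 and 7.68 (ZT8), 7.75 and 7.77 (ZT12), 7.64 (ZT16), and 7.59 and 7.49 (ZT20). WT arrays read 7.27 and 7.53 (ZT0), 7.09 and 7.31 (ZT4), 7.12 (ZT8), 7.23 and 7.01 (ZT12), 7.21 and 7.53 (ZT16), and 7.38 and 7.31 (ZT20). By group means KO was highest at ZT12 (7.758). WT was lowest at ZT12 (7.117), and its single ZT8 pool was nearly as low (7.122). The fitted peak was at ZT10.6 in KO with an amplitude of 0.12 ± 0.04 (adjusted p = 0.311), and at ZT20.8 in WT with an amplitude of 0.16 ± 0.05 (adjusted p = 0.106). The waves differed by 0.27 ± 0.06 (unadjusted p = 0.00153, adjusted p = 0.31). The gap between genotypes was 0.08 ± 0.12 at ZT0, where the pools overlapped, and 0.64 ± 0.12 at ZT12.

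The calcium genes had fitted peaks late in the subjective night in KO, at ZT20.8 for Trpv5, ZT20.9 for Calb1 and ZT20.9 for Slc8a1, with amplitudes of 0.10 ± 0.05, 0.21 ± 0.06 and 0.14 ± 0.06 and adjusted p of 0.488, 0.113 and 0.367. In WT the peaks were at ZT10.4 for Trpv5, ZT22.8 for Calb1 and ZT23.2 for Slc8a1, with amplitudes of 0.08 ± 0.05, 0.10 ± 0.06 and 0.18 ± 0.06 and adjusted p of 0.477, 0.524 and 0.128. By limma 0 of these 6 waves were called, and 2 had an unadjusted p under 0.05, Calb1 in KO and Slc8a1 in WT. Calb1 on KO arrays read 11.80 and 11.45 (ZT0), 11.47 and 11.49 (ZT4), 11.35 and 11.35 (ZT8), 11.46 and 11.29 (ZT12), 11.54 (ZT16), and 11.90 and 11.68 (ZT20). The KO pools lay furthest apart at ZT0, and without KO ZT0 pool 2 the KO rhythm was called (amplitude 0.24, adjusted p = 0.0405). Slc8a1 on WT arrays was lowest at ZT8 (8.63) and ZT12 (8.65 and 8.58) and reached 9.16 at ZT0 and at ZT16, and without WT ZT16 pool 2 its WT rhythm was called (amplitude 0.22, adjusted p = 0.0181). For Trpv5 the waves differed by 0.18 ± 0.07 (unadjusted p = 0.041, adjusted p = 0.637).

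The remaining 4 genes had KO amplitudes of 0.09 to 0.12 and WT amplitudes of 0.04 to 0.14, and by limma 0 of their 8 waves were called, with 0 at an unadjusted p under 0.05. Kcnma1 peaked at ZT9.37 in KO and ZT7.8 in WT, with a difference between waves of 0.06 ± 0.07. Pvalb peaked at ZT4.26 in KO and ZT23.4 in WT, with the lowest KO mean at ZT20 (pools at 8.56 and 8.58). Kcnj1 peaked at ZT16 in KO and ZT20.8 in WT, and Kcnj10 at ZT13.9 in KO and ZT21.6 in WT.

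**Figure D3:**
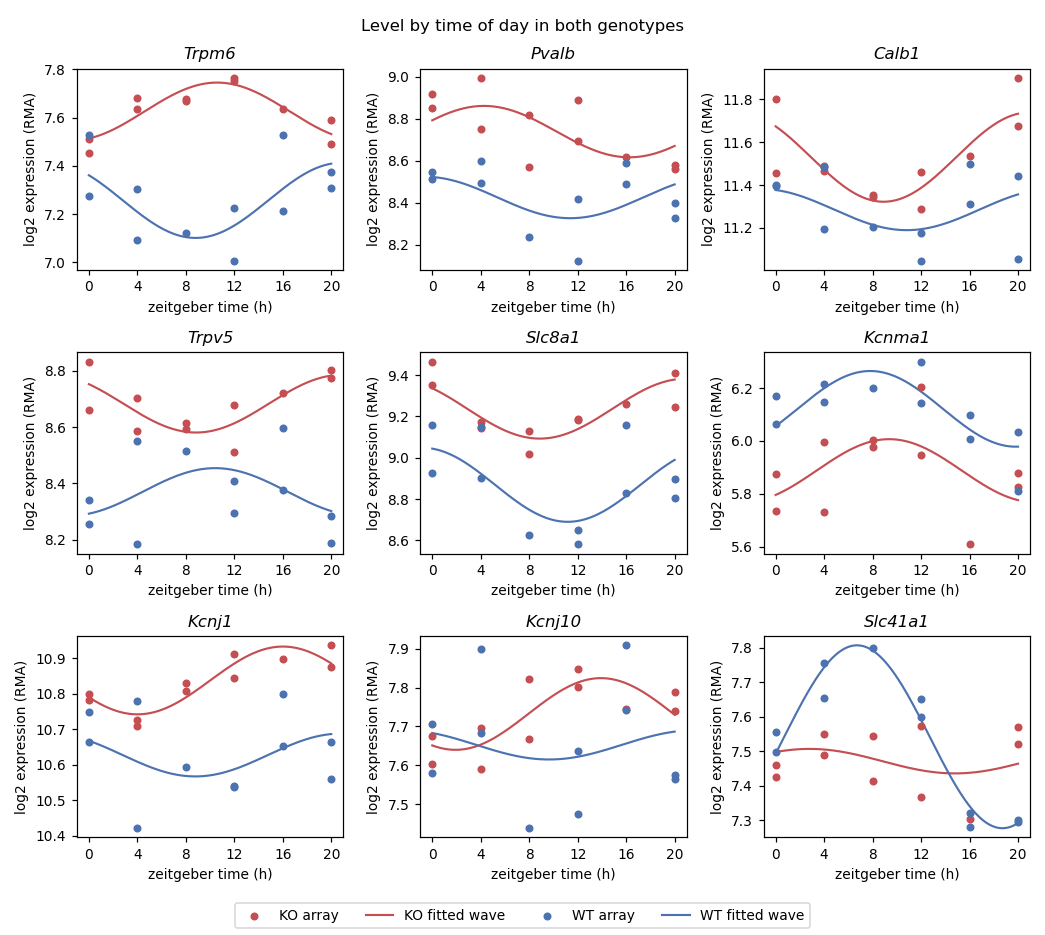
Log2 expression of the 9 genes against zeitgeber time in hours, one point per array and one fitted 24 h wave per genotype, KO in red and WT in blue, each gene on its own axis. The KO wave lies above the WT wave for Trpm6, Pvalb, Calb1, Trpv5, Slc8a1 and Kcnj1 and below it for Kcnma1, and Slc41a1 shows a wave in WT and almost none in KO.

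Differences at each time were then tested between the group means. The KO mean was higher at all 6 times for Trpm6, Pvalb, Calb1, Trpv5, Slc8a1 and Kcnj1, and lower at all 6 times for Kcnma1. Kcnj10 had a higher KO mean at 3 times and Slc41a1 at 2. Single times carry 1 or 2 pools a group, and few genes were called at any of them. The share of all genes called was 0.0286% at ZT0, 0.00716% at ZT4, 0.0286% at ZT8, 0.122% at ZT12, 0.0143% at ZT16 and 1.75% at ZT20. At ZT0, ZT4, ZT8 and ZT16, 0 of the 9 genes were called by limma, with 4, 5, 5 and 1 of them at an unadjusted p under 0.05, against 4.44%, 3.77%, 5.76% and 7.01% of all genes at that threshold.

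At ZT12, 1 of the 9 genes was called, Trpm6, at 7.75 and 7.77 in KO against 7.23 and 7.01 in WT (difference 0.64 ± 0.12, adjusted p = 0.0496). That call was lost when either WT ZT12, either WT ZT20 or either KO pool at ZT0, ZT4, ZT8, ZT12 or ZT20 was left out, with adjusted p of 0.0646 to 0.469 and differences of 0.53 to 0.75. It was also lost with no filter on dim probe sets, where more genes were tested (adjusted p = 0.0817). With the pool number added to the fit as a block, the call was lost too (adjusted p = 0.0591). Slc8a1 differed by 0.57 ± 0.12 (adjusted p = 0.0756), Pvalb by 0.52 ± 0.12 (adjusted p = 0.103) and Kcnj1 by 0.34 ± 0.10 (adjusted p = 0.305) at the same time. For Slc8a1 the adjusted p was 0.0466 without either WT ZT4 pool.

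At ZT20, 1 of the 9 genes was called, Trpv5, at 8.77 and 8.80 in KO against 8.29 and 8.19 in WT (difference 0.55 ± 0.12, adjusted p = 0.0293). Leaving out either KO or either WT pool at ZT20 ended the call, with differences of 0.50 to 0.60 and adjusted p of 0.0563 to 0.31. Calb1 differed by 0.54 ± 0.14 (adjusted p = 0.0763), and by 0.73 (adjusted p = 0.0386) without WT ZT20 pool 1, and Slc8a1 differed by 0.48 ± 0.12 (adjusted p = 0.0549). Without either pool of WT ZT4 or WT ZT16, the adjusted p for Slc8a1 was 0.0418 or 0.0396. Both KO pools at ZT20 are those with the highest genotype scores, and the 1.75% of all genes called at ZT20 rests on the same pools, whose part in these differences was not tested.

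Repeat pools of a group differed by a median of 0.054 (Slc41a1) to 0.18 (Calb1) over the 10 groups with 2 pools, and the largest gaps of the 9 genes ran from 0.21 to 0.39. Of these 9 largest gaps, 5 were between WT pools at ZT4 or ZT16.

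Other genes of the same transport systems were described from 4 lists, of which 41 of 50 listed genes were measured. Of these 41, 3 were higher in KO, 3 were lower and 35 were not called, with a median difference of 0.049, or 6 of 41 called, against 9.14% called among all genes. Differences were positive for 29 of the 41 and for 7225 of all 13967 genes. An unadjusted p under 0.05 by limma was found for 15 of the 41, against 25.1% of all genes. By list these were 5 of 12 magnesium, 2 of 9 calcium, 5 of 10 potassium and 3 of 10 regulator genes. Of 12 measured magnesium genes 1 was called, Cnnm2, a membrane protein tied to magnesium balance, at a mean of 8.87 in KO and 8.76 in WT (0.13 ± 0.03, adjusted p = 0.0173). Trpm7, the close relative of Trpm6, differed by 0.07 ± 0.05 (adjusted p = 0.454). Of 9 measured calcium genes 0 were called by limma and 2 had an unadjusted p under 0.05, against 25.1% of all genes, with differences from -0.12 to 0.18, and the calcium buffer S100g (calbindin-D9k) stood at 0.18 ± 0.07 (adjusted p = 0.0989).

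Of 10 measured potassium genes 1 was higher and 3 were lower in KO. Kcnk1, a background potassium channel, averaged 9.87 in KO and 9.53 in WT (0.34 ± 0.05, adjusted p = 0.000355). Kcnk5, another channel of that family, averaged 9.69 in KO and 10.13 in WT (-0.44 ± 0.11, adjusted p = 0.015). The channel Kcnj15 averaged 11.39 in KO and 11.52 in WT (-0.14 ± 0.04, adjusted p = 0.0421), and the potassium-chloride cotransporter Slc12a7 averaged 9.32 in KO and 9.45 in WT (-0.14 ± 0.04, adjusted p = 0.041). Kcnj16, the partner subunit of Kcnj10, differed by 0.03 ± 0.03 (adjusted p = 0.557).

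Of 10 regulators of distal transport 1 was called, Klhl3, which targets WNK kinases for breakdown, at 8.56 in KO and 8.37 in WT (0.18 ± 0.03, adjusted p = 0.000752). Wnk4 differed by 0.03 ± 0.05 (adjusted p = 0.681). In WT, 2 of the 10 were rhythmic, the kinase Sgk1, with an amplitude of 0.43 ± 0.07 (adjusted p = 0.00261), and the mineralocorticoid receptor Nr3c2, with 0.22 ± 0.06 (adjusted p = 0.0471). In KO the amplitude by limma was 0.24 for Sgk1 (adjusted p = 0.177) and 0.03 for Nr3c2 (adjusted p = 0.966). The difference between the waves is not given for either gene. In KO 0 of the 41 genes had a rhythm called by limma, against 2.46% of all genes, and 3 had an unadjusted p under 0.05, against 13.8%. In WT Sgk1 and Nr3c2 were the 2 of the 41 called, against 6.48% of all genes.

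Whole-kidney RNA mixes all cell types, so more cells of a type and more RNA per cell cannot be told apart. The 6 markers of the distal convoluted tubule other than the 9 genes (Slc12a3, Emx1, Sall3, Tmem52b, Egf and Slc16a7) all had positive differences, with a median of 0.10. By limma 1 was called, the monocarboxylate transporter Slc16a7 at 0.19 ± 0.05 (adjusted p = 0.0106), and 5 of the 6 had an unadjusted p under 0.05, against 25.1% of all genes. The sodium-chloride cotransporter Slc12a3 averaged 12.22 in KO and 12.09 in WT (0.14 ± 0.04, adjusted p = 0.0539). The summed linear level of the 6 markers ran from 16070 to 17699 on KO arrays and from 14918 to 17028 on WT arrays, so the genotypes overlapped. With the mean of these 6 markers subtracted on each array, the differences were 0.26 for Trpm6, 0.21 for Pvalb, 0.21 for Trpv5, 0.26 for Slc8a1, 0.11 for Kcnj1 and -0.34 for Kcnma1, all called (adjusted p of 0.000534, 0.0155, 0.00305, 0.00262, 0.0456 and 0.000583). On that scale Calb1 differed by 0.14 (adjusted p = 0.0632), Kcnj10 by -0.024 (adjusted p = 0.717) and Slc41a1 by -0.17 (adjusted p = 0.00651). The subtraction lowers the KO minus WT difference of every gene by the same amount, so genes lower in KO move further below 0. The share of all genes called on that scale was not taken, so these calls have no background beside them.

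Markers of neighbouring segments had positive medians too. An unadjusted p under 0.05 by limma was found for 5 of 6 thick ascending limb markers and 6 of 8 connecting tubule and principal cell markers. It was found for 3 of 6 intercalated cell markers, against 25.1% of all genes. The 6 thick ascending limb markers had a median difference of 0.12, with Cldn10 higher (0.12) and Umod lower (-0.09), and their summed level was 15877 to 17261 in KO and 15597 to 18184 in WT. The 8 markers of connecting tubule and principal cells had a median of 0.13 with 3 called higher, Avpr2 (0.28), Scnn1g (0.20) and Fxyd4 (0.14), the water channels Aqp2 (-0.10) and Aqp3 (-0.03) below 0 and not called, and a summed level of 5212 to 5802 in KO and 4952 to 5852 in WT. The 6 intercalated cell markers had a median of 0.12 with 2 higher, Slc4a1 (0.21) and Atp6v0d2 (0.16), Aqp6 below 0 and not called (-0.07), and a summed level of 2556 to 3110 in KO and 2300 to 2782 in WT.

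Outside the distal nephron, 3 of 7 proximal tubule markers were higher and 1 lower in KO (median 0.064), with a summed level of 35530 to 39075 in KO and 33521 to 36423 in WT. Of 6 endothelial markers 3 were higher (median 0.17), Plvap (0.33), Pecam1 (0.30) and Cdh5 (0.27), while Kdr (-0.04) and Flt1 (-0.07) were below 0 and not called, with a summed level of 3888 to 4650 in KO and 3564 to 4247 in WT. By limma 4 of the 7 proximal tubule markers and 3 of the 6 endothelial markers had an unadjusted p under 0.05. Of 4 podocyte, 5 stromal and 5 immune markers 0 were called by limma, and 0 had an unadjusted p under 0.05, with medians of -0.000781, 0.064 and -0.061. The 1 measured adrenal marker, Th, and the 1 measured red cell marker, Alas2, were not called (-0.12 and -0.07). The part of these cell types in the differences of the 9 genes was not tested. The subtraction of the distal convoluted tubule markers cannot test it, since those markers may change in cell number or in RNA per cell.

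The genes whose course over the 22 arrays was most like each of the 9, after each genotype's mean was subtracted, were ranked by Pearson's r as a description, since all arrays share pools, times and normalization. Calb1 was nearest to Car2, a carbonic anhydrase (r = 0.905), and to Myof (0.862). Slc41a1 was nearest to Klf12 (0.89) and to the amino acid transporter Slc6a19 (0.889). For Trpm6 the nearest genes were Kti12 (0.725) and Zcchc7 (0.675), for Pvalb Mpi (0.726) and Nme6 (0.716), and for Trpv5 Apmap (0.807) and Tspan12 (0.771). For Slc8a1 they were Mir196a-1 (0.81) and Megf9 (0.804), for Kcnma1 Grk6 (0.837) and Phka2 (0.806), for Kcnj1 Add3 (0.8) and Ppp1r12a (0.797), and for Kcnj10 Wwc1 (0.771) and Slc4a3 (0.758). Among the 2 nearest genes of each, 0 were others of the 9. Among pairs of the 9, the highest r was 0.772 for Calb1 and Slc8a1, followed by 0.652 for Calb1 and Trpv5, and the lowest was -0.435 for Trpm6 and Slc41a1.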

How the data were processed

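The authors deposited log2 values for each probe set, which per the submitters' processing notes come from RMA. RMA subtracts background, gives every array the same quantiles and combines the probes of each set, so a change common to most genes cannot be seen and dim probe sets are compressed. For software, genome build and scan dates, the sources used here give nothing. There is no read depth on arrays, and the number of arrays limits the precision.

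The table has 35556 probe sets: 21789 carry 1 symbol in GEO's annotation, 1621 carry several and 12146 are unnamed here. By gene number, 21698 of the first kind matched RefSeq (GRCm38.p6). Probe sets whose mean over all arrays fell under the 30th percentile (5.21 log2) were dropped, and each gene was read from its brightest single-symbol probe set. With limma 3.58.1 in R 4.3.3, each genotype was given a mean and a 24 h cosine and sine (16 residual degrees of freedom), and single times were tested between 12 group means (10 residual degrees of freedom), taking a lone pool to vary as other groups do. Adjusted p-values are Benjamini-Hochberg over 13967 genes, called under 0.05. Summed marker levels add unlogged values. The 9 genes, the lists, the markers and the tests were chosen with earlier results of these data known. The text names the 9 genes, called genes of each pathway list (up to 5 a list) and the 2 genes most like each of the 9. Trpm7, S100g, Kcnj16, Wnk4, Sgk1, Nr3c2 and single markers were named after their values were seen. The fits were tested on simulated data with independent noise and no pool effect, which cannot check the p-values against the mark that the pool number left. Alternatives were other filters, probe set rules, scaling, spread estimates and models, the pool number as a block or pools alone, and leaving out arrays. The labels tie no pool number to a shared source in both genotypes, although the second residual component largely split pool 1 from pool 2 arrays. The residual correlations of same-numbered pools ran from -0.117 to 0.346, with 5 of 10 over 0.1. The numbers were not taken as pairs, and the main fit holds no term for them.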

Additional observations from a re-analysis of the deposited data

Results flagged for a closer look

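For 3 of the 9 genes the 24 h waves of KO and WT differed by limma's test of the difference itself at an unadjusted p under 0.05, and none passed over all genes. The length of the difference between the waves was 0.27 log2 for Trpm6 (0.268, unadjusted p = 0.00153, adjusted p = 0.31), 0.18 for Trpv5 (0.183, unadjusted p = 0.041, adjusted p = 0.637) and 0.25 for Slc41a1 (0.249, unadjusted p = 0.000468, adjusted p = 0.198). Trpm6 peaked at ZT10.6 in KO and ZT20.8 in WT, Trpv5 at ZT20.8 in KO and ZT10.4 in WT, and Slc41a1 had an amplitude of 0.04 in KO and 0.27 in WT. Over all genes, 1087 had an unadjusted p under 0.05 in this test. No group held enough arrays for a check of single outlying values.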

How the results depend on the processing

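The count of 7 called mean differences among the 9 genes held in all 22 fits that left out 1 array, in which 903 to 1850 of all genes were called, against 1276 with all arrays. Of the 134 values of a mean difference of the 9 genes under other settings, 121 kept their direction and their side of the threshold. Within pool 1, 565 genes and 7 of the 9 were called, and within pool 2, with 4 residual degrees of freedom, 1 gene and 0 of the 9, where Slc41a1 stood at 0.020. At an unadjusted p under 0.05, limma gave 1318 genes and 3 of the 9 in pool 2. Array weights called 2351 genes, group means 823, and 639 were called without both KO pools at ZT20. Relative to the distal convoluted tubule markers, a scale chosen after seeing the data, Kcnj10 stood at -0.024. At the 50th percentile filter Kcnma1 was left out and 6 of the other genes were called. The alternative without the 3 arrays between the genotypes was also chosen after seeing the data, by their genotype scores.

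KO rhythm was called for 343 genes, and for 228 with no filter, 222 with every probe set, 0 in pool 1, 0 in pool 2, 697 with array weights, 195 with KO fitted on its own, 59 with group means, 12 without both KO pools at ZT20 and 58 without the 3 arrays between the genotypes. Leaving out 1 array gave 77 (KO ZT20 pool 2) to 477 (KO ZT0 pool 2) genes and 0 to 1 of the 9. At an unadjusted p under 0.05 there were 1112 in pool 1 and 1317 in pool 2. Array weights called 1 of the 9, Calb1 (adjusted p = 0.0199).

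WT rhythm was called for 905 genes, and for 95 in pool 1, 14 in pool 2, 363 with WT fitted on its own, 140 with group means and 595 without the 3 arrays. Leaving out 1 array gave 602 (WT ZT12 pool 2) to 954 genes and 1 to 2 of the 9. Repeated quantile normalization and array weights each called 2 of the 9, Slc41a1 and Trpm6 (adjusted p = 0.0332 and 0.0337 for Trpm6), and pool 2 alone called 0, with Slc41a1 at 0.24 (adjusted p = 0.369).

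The rhythm difference was called for 6 genes, and for 10 at the 50th percentile filter, 3 in pool 1, 0 in pool 2, 11 with array weights, 1 with group means, 3 without both KO pools at ZT20 and 20 without the 3 arrays, where 1 of the 9, Slc41a1, was called. In pool 2, 620 genes and 0 of the 9 had an unadjusted p under 0.05. Leaving out 1 array gave 1 to 11 genes and 0 of the 9.

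At single times, leaving out 1 array gave 0 to 13 called genes at ZT0, 0 to 13 at ZT4, 0 to 5 at ZT8, 2 to 55 at ZT12, 2 to 23 at ZT16 and 21 to 366 at ZT20. With no filter there were 0 at ZT0, 0 at ZT8 and 154 at ZT20. Subtracted array medians gave 1 at ZT0, 27 at ZT12 and 4 at ZT16, repeated quantile normalization 2 at ZT0 and 32 at ZT12, and a trended robust spread 39 at ZT12 and 12 at ZT16. Under repeated quantile normalization Slc41a1 stood at -0.029 at ZT16. Leaving out 1 array turned the sign of small differences, with ranges of -0.045 to 0.21 for Trpm6 and -0.068 to 0.059 for Kcnj10 at ZT0, -0.0079 to 0.28 for Calb1 and -0.064 to 0.30 for Kcnj1 at ZT4, -0.16 to 0.0026 for Kcnj10 and -0.018 to 0.024 for Slc41a1 at ZT16, and -0.18 to 0.043 for Kcnma1 at ZT20. The trended spread also called Slc8a1 at ZT12 and ZT20 and Calb1 at ZT20 (adjusted p = 0.0393, 0.0325 and 0.0427), and quantile normalization called Slc8a1 at ZT12 (adjusted p = 0.0468).

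With the pool number as a replicate block, 1405 genes and 7 of the 9 were called for the mean, 1 gene at ZT0 and 0 at ZT4, and Trpm6 at ZT12 had an adjusted p of 0.0591. With no filter that p was 0.0817. The cause of these changes was not tested. At most 2 pools a group limit the differences at single times, and dim signal limits Kcnma1.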
